A study of Mus musculus with 6 samples.

Results

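Small structured noncoding RNAs were compared between WT and Selenbp1-KO mouse kidneys. Members were taken by name from the array annotation, as RNase P and RNase MRP RNAs and their RNase P-like relatives (Rpph1, Rmrp and the Rprl genes), spliceosomal small nuclear RNAs and U3 (Rnu), 7SL and 7SK (Rn7s), small nucleolar RNAs (Snord and Snora), small Cajal body RNAs (Scarna), telomerase RNA (Terc) and vault RNA (Vaultrc). The names matched 28 probes of 28 genes among the 56605 non-control probes, or 37074 gene names, of the array, and no Y RNA was among them. These RNAs were chosen with their KO-WT difference already known, so that difference is given as a description throughout. The arrays held RNA from the left kidneys of 8-week-old male C57BL/6J mice fasted for 20 h, 3 WT (replicates 2, 3 and 4) and 3 Selenbp1-KO (replicates 1, 2 and 3). The WT mice were obtained from a breeder and are not described as littermates of the knockout mice. The study's methods describe the 6 samples as 3 WT and 3 knockout mice, and p-values measure the spread between these 6 samples.

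A structured RNA works through its fold rather than through a protein product. RNase P trims the leaders of transfer RNA precursors, RNase MRP cuts the ribosomal RNA precursor, the U RNAs form the spliceosome, and snoRNAs guide the modification and cutting of other RNAs in the nucleolus. Many are made by RNA polymerase III or cut out of introns, most lack a poly(A) tail, and the kidney, like every tissue, needs them in all its cells. The labelling kit copies RNA from a primer that anneals to poly(A) tails, and how these RNAs entered the labelled pool was not tested.

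The probes are 60 bases long, and those the results turn on are printed 5′ to 3′ in the sense of the RNA as the scanner output gives them, with mm9 positions where the output has one. The first set is shown because it carries the largest KO-WT differences. Capitals mark a run of 16 bases that the Rprl2 and Rprl3 probes share. Another shared run of the same length lies just after it, so these probes may not measure separate RNAs. The set holds the RNase P RNA (chr14:51427130-51427189, minus strand), Rprl1 (chr6:69277097-69277156, minus strand), Rprl2 (chr3:22150423-22150482, plus strand), Rprl3 (no position given) and the RNase MRP RNA (chr4:43505692-43505751, minus strand).
Rpph1: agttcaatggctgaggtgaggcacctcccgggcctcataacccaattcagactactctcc
Rprl1: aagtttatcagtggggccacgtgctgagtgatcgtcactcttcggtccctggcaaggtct
Rprl2: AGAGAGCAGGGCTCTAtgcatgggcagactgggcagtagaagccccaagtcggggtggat
Rprl3: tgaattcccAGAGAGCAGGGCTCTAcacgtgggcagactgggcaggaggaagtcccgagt
Rmrp: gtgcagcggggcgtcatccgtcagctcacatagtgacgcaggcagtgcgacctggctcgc

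The U1 probes are shown because they are near copies of each other. Capitals mark the 26 bases common to the probes of Rnu1a1 (chr3:96292678-96292738), Rnu1b1 (chr3:96177970-96178029) and Rnu1b6 (chr3:96177965-96178024), all on the plus strand. The Rnu1b1 and Rnu1b6 probes share a run of 48 bases, and U1 is a multicopy gene, so these probes cannot be read as separate genes.
Rnu1a1: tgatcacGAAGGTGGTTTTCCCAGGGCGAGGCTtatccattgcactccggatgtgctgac
Rnu1b1: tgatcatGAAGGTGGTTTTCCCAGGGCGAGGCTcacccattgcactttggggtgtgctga
Rnu1b6: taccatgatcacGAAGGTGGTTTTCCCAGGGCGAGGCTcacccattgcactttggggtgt

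The last set shows where probes lie at the 3′ end of an RNA. Capitals mark CTGA, the D box letters of a C/D snoRNA, in U3 (Rnu3b1, chr11:87285025-87285084, plus strand) and Snord17 (chr2:144091718-144091777, minus strand), ACA, the letters of the ACA box, in Snora34 (chr15:98350149-98350208, minus strand) and Snora73a (chr4:131908690-131908749, minus strand), and the closing TTTT of 7SK (Rn7sk, chr9:78023109-78023168, minus strand), a polymerase III transcript. On the printed strand alone, CTGA lies in the last 20 bases of 9.3% of the 56605 probes, ACA in the last 8 bases of 11.2%, and TTTT in the last 8 bases of 4.7%, so a match is a description of these letters only.
Rnu3b1: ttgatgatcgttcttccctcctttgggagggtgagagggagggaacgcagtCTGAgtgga
Snord17: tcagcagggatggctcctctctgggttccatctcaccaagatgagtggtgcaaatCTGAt
Snora34: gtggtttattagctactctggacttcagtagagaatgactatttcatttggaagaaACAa
Snora73a: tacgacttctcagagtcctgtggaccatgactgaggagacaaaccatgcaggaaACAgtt
Rn7sk: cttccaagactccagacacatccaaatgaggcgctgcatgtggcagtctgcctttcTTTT

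Values below are log2 signals relative to the 75th percentile of the array, with a difference of 1 equal to a 2-fold change. Selenbp1, the targeted gene, was lower in the knockout (difference -2.96, SE 0.10, limma adjusted p = 0.00210), and all 8 kidney markers were well above background on all 6 arrays. The arrays lay on 1 slide. The first number of an array's position in the file headers was 1 for WT replicates 2 and 3. It was 2 for WT replicate 4 and all 3 Selenbp1-KO arrays. That number is called slide side here, which is only a name for it. Genotype and side therefore overlap in part, and for most of the small RNAs the difference is given against all WT arrays and against WT replicate 4. A difference between tissue samples can come from fewer cells of a type or from less RNA per cell, which cannot be told apart here.

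Of the 28 RNAs, 27 had a higher mean in Selenbp1-KO than in WT kidneys, with a median difference of 1.30 and quartiles of 0.56 and 1.80. Over the 21 RNAs well above background on all 6 arrays the median was 1.32. By limma, 19 were higher at an unadjusted p under 0.05 and 0 were lower, beside 6.47% of all probes higher and 1.51% lower, and 0 of the 28 passed Benjamini-Hochberg adjustment (lowest adjusted p = 0.279), beside 0.00357% of all probes. The number that passed adjustment was 19 without WT replicate 4, 9 with scaling on the spike-in probes (chosen after seeing the data) and 1 with trend and robust moderation. At the unadjusted threshold these fits called 31.3%, 3.01% and 13.4% of all probes, and their share of all probes past adjustment is not given here. In 20 RNAs every Selenbp1-KO array lay above every WT array, beside 9.22% of all probes. Since these RNAs were chosen for this difference, nothing is read from the counts. The WT arrays were not alike. WT replicate 4 exceeded the mean of WT replicates 2 and 3 in 25 of 28 RNAs, with a median of 1.48, and lay between that mean and the Selenbp1-KO mean in 23. The median over the 28 RNAs of the deviation from each RNA's own mean was -1.03 and -1.13 on WT replicates 2 and 3, 0.13 on WT replicate 4, and 0.88, 0.70 and 0.52 on the Selenbp1-KO arrays. Against WT replicate 4 alone, the Selenbp1-KO mean was higher in 26 RNAs, with a median difference of 0.42. With slide side as a block, which gives the same contrast, 7 RNAs remained past the threshold, all of them higher, beside 2.43% of all probes, and without the side 1 arrays the count was 8, all of them higher, beside 2.06% of all probes. Without those arrays WT is 1 sample, assumed to vary like the Selenbp1-KO arrays. The SEs given below against WT replicate 4 come from the fit with slide side as a block. Their spread is that between WT replicates 2 and 3 and between the Selenbp1-KO arrays. The spread between WT kidneys on side 2 was not measured, so a smaller SE there is not a more precise difference. The count at the unadjusted threshold was 11 without WT replicate 2 (3.61% of all probes in either direction), 12 without WT replicate 3 (4.68%), 12 without Selenbp1-KO replicate 1 (5.76%) and 12 without Selenbp1-KO replicate 2 (5.01%). It was 21 without WT replicate 4, where 31.3% of all probes passed.

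**Figure D1:**
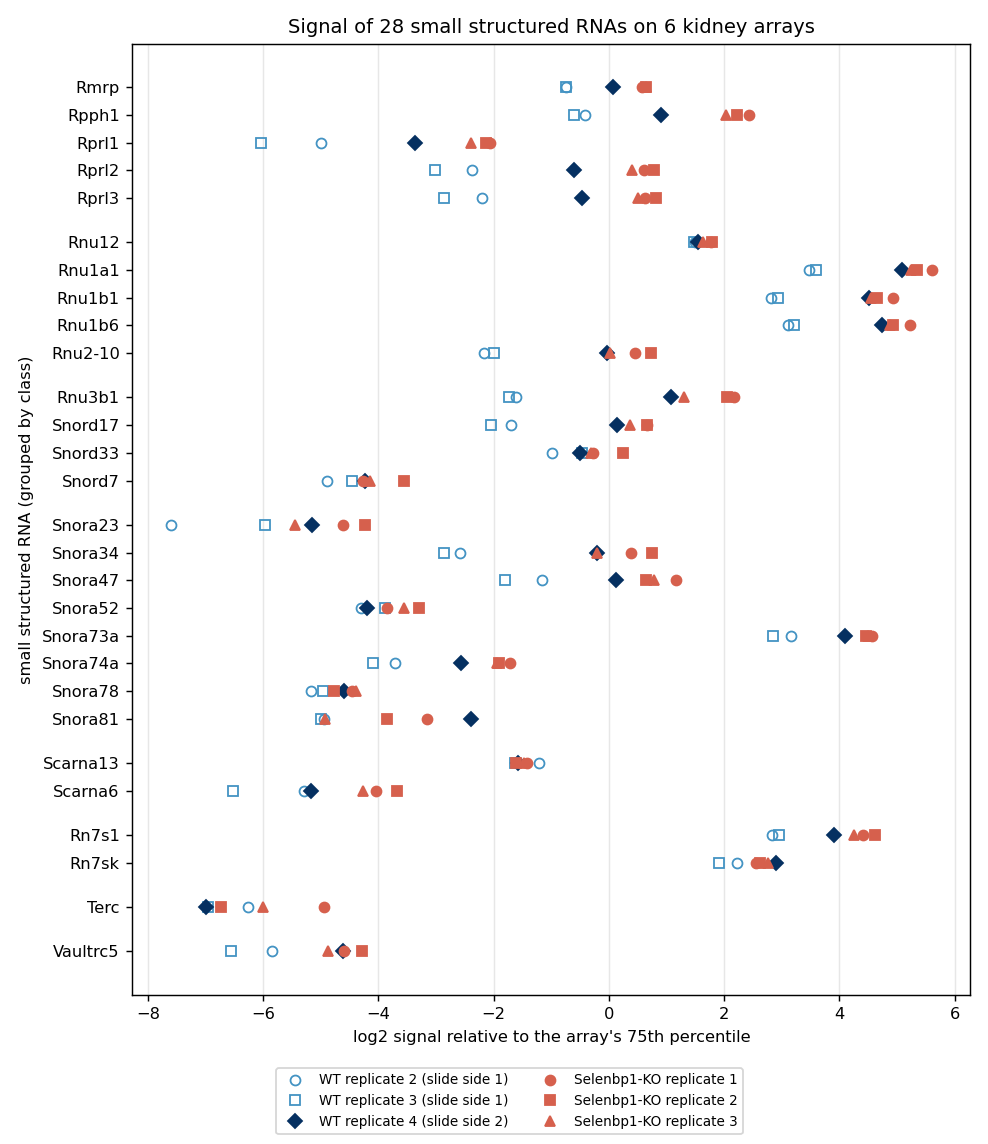
Log2 signal relative to the 75th percentile of the array (x axis) of the 28 small structured RNAs (y axis, grouped by class), with 1 point per array and no averaging. For most RNAs the open WT points of slide side 1 lie lowest and WT replicate 4 lies between them and the Selenbp1-KO points. Levels of different probes are not comparable with each other.

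The RNase P and RNase MRP RNAs had the largest class difference, with a median of 2.48 over the 5 RNAs. Rpph1, the RNA subunit of RNase P, was at -0.42, -0.60 and 0.91 in WT replicates 2, 3 and 4 and at 2.43, 2.22 and 2.04 in Selenbp1-KO replicates 1, 2 and 3. All Selenbp1-KO kidneys were above all WT kidneys, and WT replicate 4 stood above the other WT arrays. The difference was 2.26 (SE 0.41), or 4.80-fold, and it was 1.31 (SE 0.19), or 2.48-fold, against WT replicate 4. Rmrp, the RNA of RNase MRP, was at -0.74, -0.75 and 0.07 in WT and at 0.58, 0.64 and 0.65 in Selenbp1-KO kidneys. Its difference of 1.09 (SE 0.24) came down to 0.55 (SE 0.11) against WT replicate 4, and again the groups did not overlap.

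The RNase P-like genes followed Rpph1, although the Rprl2 and Rprl3 probes share sequence and may not measure separate RNAs. Rprl2 was at -2.38, -3.02 and -0.61 in WT and at 0.60, 0.78 and 0.40 in Selenbp1-KO kidneys, and the difference was 2.60 (SE 0.60). Rprl3 was at -2.20, -2.85 and -0.47 against 0.62, 0.81 and 0.50, a difference of 2.48 (SE 0.59). Rprl1 was at -5.00, -6.04 and -3.36 against -2.05, -2.13 and -2.39, a difference of 2.61 (SE 0.64), with 1 WT array not well above background. With normexp background correction the difference of Rprl1 was 1.35, so its size depends on how the background is handled. In each of these genes WT replicate 3 was the lowest array, WT replicate 4 the highest WT array, and the Selenbp1-KO arrays stayed within a narrow band. Against WT replicate 4 the differences were 1.21 for Rprl2, 1.11 for Rprl3 and 1.17 for Rprl1. The 5 RNAs of the class were all past the threshold with side as a block and made up 5 of the 7 such RNAs; the other two were Rn7s1 and Snora74a. Among the 10 genes for the protein subunits of RNase P and RNase MRP, 0 passed the limma threshold of p under 0.05, beside 7.99% of all genes, and their median difference was 0.03. Pop1, the largest of these subunits, was lower by a difference of -0.05 (SE 0.16), which did not pass.

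Among the spliceosomal RNAs, U1 and U2 were higher on the 3 Selenbp1-KO arrays and on WT replicate 4 than on the side 1 arrays. Rnu1a1, a U1 RNA that pairs with 5′ splice sites, was at 3.48, 3.60 and 5.08 in WT and at 5.61, 5.34 and 5.24 in Selenbp1-KO kidneys. WT replicate 4 lay 1.54 above the other WT arrays and only 0.32 (SE 0.19) below the Selenbp1-KO mean, whereas the genotypes differed by 1.35 (SE 0.44). Rnu1b1 and Rnu1b6 differed by 1.29 and 1.32, and by 0.20 and 0.26 from WT replicate 4, although their probes are largely the same sequence. Rnu2-10, a U2 RNA that pairs with the branch site, was at -2.17, -2.00 and -0.02 in WT and at 0.46, 0.72 and 0.03 in Selenbp1-KO kidneys. WT replicate 4 lay just under the lowest Selenbp1-KO array, and the other WT arrays lay far under both. Rnu12, the U12 RNA of the minor spliceosome, was different in size. It was at 1.50, 1.49 and 1.54 in WT and at 1.78, 1.80 and 1.63 in Selenbp1-KO kidneys, and the difference was 0.23 (SE 0.10), with WT replicate 4 only 0.05 above the other WT arrays.

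The proteins that assemble or bind these RNAs differed little. Of 16 Sm and LSm genes, 14 had a higher mean in Selenbp1-KO kidneys, beside 13977 of the 26819 probes well above background on all 6 arrays. Among the 16, 1, Lsm7, passed the threshold, beside 7.99% of all genes in either direction. The median difference of the 16 was 0.10 from all WT arrays and -0.004 from WT replicate 4. Lsm7, a subunit of the LSm rings, was 4.09 ± 0.13 in WT and 4.39 ± 0.04 in Selenbp1-KO kidneys (SD, n = 3 arrays each), a difference of 0.29 (limma adjusted p = 0.279). None of the 9 SMN complex genes passed, and Smn1, which helps to load Sm rings, differed by -0.08 (SE 0.10). Of the 11 Integrator subunits, which cut the 3′ ends of U RNAs, 1 passed. Ints2 fell from 2.36 ± 0.05 to 2.10 ± 0.12 (SD, n = 3 arrays each), a difference of -0.26 (limma adjusted p = 0.279). Both calls were lost with slide side as a block, where the differences were 0.16 for Lsm7 and -0.21 for Ints2, and both were also lost when WT replicate 2, WT replicate 3 or any Selenbp1-KO array was left out.

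The C/D box snoRNAs, most of which guide 2′-O-methylation, fell into a large and a small difference. Rnu3b1 (U3, which acts in cutting the ribosomal RNA precursor) was at -1.60, -1.72 and 1.08 in WT and at 2.17, 2.05 and 1.30 in Selenbp1-KO kidneys. The difference of 2.59 (SE 0.78) was accompanied by a step of 2.75 between WT replicate 4 and the other WT arrays, the largest such step of the 28 RNAs. Snord17 was at -1.69, -2.05 and 0.14 against 0.67, 0.66 and 0.36, a difference of 1.76 (SE 0.56) and of 0.42 from WT replicate 4. Snord33 was at -0.98, -0.47 and -0.50 against -0.27, 0.25 and -0.30, a smaller difference of 0.54 (SE 0.22) and of 0.39 from WT replicate 4. Snord7 differed by 0.54 (SE 0.26) with overlapping groups. Of the 4 C/D snoRNP genes, 0 passed: Fbl, the methyltransferase of the particle, differed by -0.09, Nop56 by -0.13 and Nop58 by -0.01.

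The H/ACA box snoRNAs, which guide pseudouridylation, had 8 members with a median difference of 1.31. Snora34 was at -2.58, -2.85 and -0.21 in WT and at 0.38, 0.75 and -0.21 in Selenbp1-KO kidneys, so that WT replicate 4 and Selenbp1-KO replicate 3 were at the same value to 2 decimals. Snora47 was at -1.15, -1.80 and 0.12 against 1.17, 0.65 and 0.79, and kept a difference of 0.74 (SE 0.33) from WT replicate 4. Snora73a, a U17-type RNA that takes part in ribosomal RNA processing, was at 3.16, 2.85 and 4.09 against 4.56, 4.45 and 4.49. Its 3 Selenbp1-KO arrays were close together (SD 0.06), whereas the WT arrays were spread (SD 0.65). Snora74a differed by 1.61 (SE 0.39) and by 0.72 (SE 0.20) from WT replicate 4, with no overlap between the groups. With normexp background correction its difference from all WT arrays was 0.94.

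Among the other H/ACA RNAs, Snora52 and Snora81 departed from this pattern. Snora52 was at -4.29, -3.89 and -4.20 against -3.86, -3.29 and -3.56, a difference of 0.56 (SE 0.19), and WT replicate 4 was not raised over the other WT arrays (-0.11). Snora81 was at -4.94, -4.99 and -2.39 in WT and at -3.16, -3.85 and -4.92 in Selenbp1-KO kidneys, so that WT replicate 4 was the highest of the 6 arrays and the mean difference was 0.13 (SE 0.82). Snora78 differed by 0.37 from all WT arrays and by 0.05 from WT replicate 4, with overlapping groups. Snora23 was well above background on none of the WT arrays and on 2 of 3 Selenbp1-KO arrays. Its groups overlapped, with Selenbp1-KO replicate 3 at -5.44 and WT replicate 4 at -5.16, so that no fold is given. Of the 6 genes for H/ACA particle proteins, 0 passed, and Dkc1, the pseudouridine synthase, differed by -0.07 (SE 0.14).

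The small Cajal body RNAs guide the modification of U RNAs. Scarna13 was at -1.21, -1.62 and -1.57 in WT and at -1.41, -1.62 and -1.47 in Selenbp1-KO kidneys. Its difference was -0.03 (SE 0.15), and it was the only one of the 28 RNAs with a lower mean in the knockout. Scarna6 was well above background on none of the WT arrays but on all 3 Selenbp1-KO arrays. Its signal was 3.16-fold higher than a floor set for the WT arrays. That is close to the plain estimate of 3.18-fold, because the floor lay near the WT signals of the probe, and is no strict lower limit. From WT replicate 4 alone the difference was 1.17 (SE 0.52), or 2.25-fold. With normexp background correction the difference from all WT arrays was 0.55, so the 3.16-fold value holds only for the subtracted background. None of the 6 genes for Cajal body and telomerase proteins passed. Tert, the telomerase reverse transcriptase, differed by 0.10 (SE 0.12). Terc, the RNA template of the same enzyme, was well above background on no array. No difference is given for it, although its probe enters the counts and medians over all 28 RNAs.

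The 7SL and 7SK RNAs are long polymerase III transcripts and behaved differently from each other. Rn7s1, the 7SL RNA that forms the core of the signal recognition particle, was at 2.83, 2.95 and 3.90 in WT and at 4.41, 4.63 and 4.26 in Selenbp1-KO kidneys. The difference of 1.20 (SE 0.30), or 2.30-fold, was 0.53 (SE 0.18), or 1.44-fold, against WT replicate 4, and every Selenbp1-KO array was above that array. Rn7sk, which holds the elongation factor P-TEFb in an inactive form, was at 2.23, 1.91 and 2.90 against 2.56, 2.63 and 2.77. Here WT replicate 4 was the highest of the 6 arrays, the difference was 0.30 (SE 0.26) from all WT arrays and -0.25 (SE 0.18) from WT replicate 4, and the groups overlapped. Many repeats in the genome resemble 7SL, and the share of the Rn7s1 signal that comes from them was not tested. None of the 8 signal recognition particle genes and none of the 4 genes for 7SK particle proteins passed, with Srp54a at -0.10 (SE 0.11) and Larp7, which binds the end of 7SK, at -0.10 (SE 0.10).

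Vaultrc5, by name the RNA of the vault particle, has a RefSeq record of 345 nt with the probe at bases 157 to 216. Whether the probe lies in the mature vault RNA was not tested. Vaultrc5 was well above background on no WT array and on 1 Selenbp1-KO array. Its groups overlapped, and the Selenbp1-KO mean was 0.03 from WT replicate 4, so that no fold is given. Mvp, the protein that forms the vault shell, differed by -0.23 (SE 0.12) and did not pass. Ssb (La), which binds the U-rich end of new polymerase III transcripts, differed by 0.01 and Ro60 by -0.18, and neither passed. Among the 11 RNA polymerase III subunits and the 17 genes for its factors and the factors of U RNA transcription, 0 passed in either list. Over all 13 lists of protein partners, 2 of 106 genes passed (1.89%), 1 in each direction, against the 7.99% of all genes given above, and the differences ran from -0.26 to 0.30 around a median of -0.001. The median of WT replicate 4 over the other WT arrays was 0.02 in these 106 genes, whereas it was 1.48 in the 28 RNAs.

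**Figure D2:**
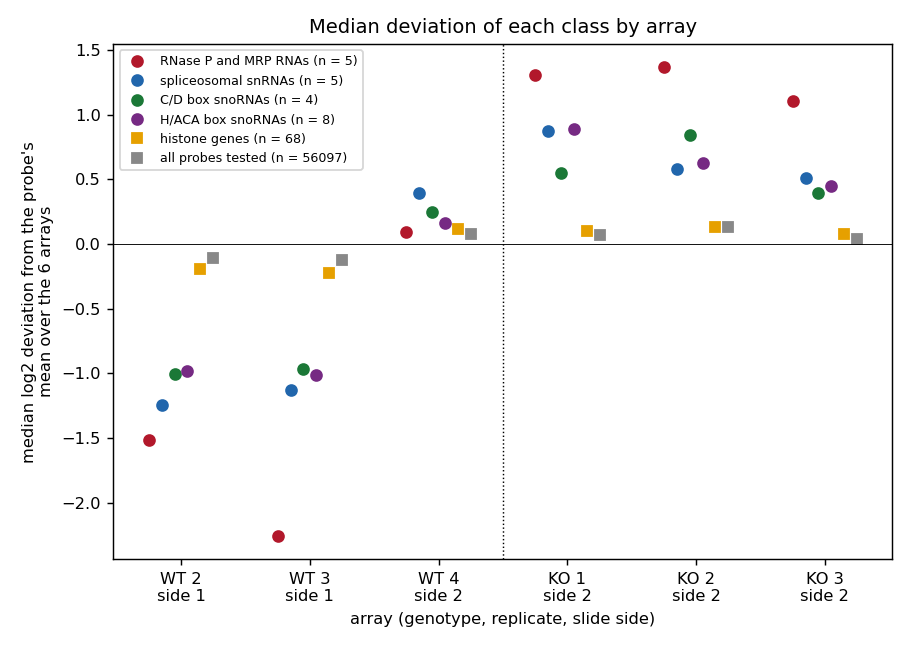
Median log2 deviation from each probe's own mean over the 6 arrays (y axis), by array (x axis, with genotype, replicate and slide side), for the 4 largest classes, for 68 histone genes and for all 56097 probes tested, with n the number of probes in a set. The dotted line separates the genotypes. The classes of small RNAs run from -2.26 to 1.36, whereas the histone genes and all probes stay between -0.22 and 0.13.

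Small RNAs that are cut from introns can be set beside the gene that carries them. By their position in RefSeq, 13 of the RNAs lie within a host gene with a probe, with 14 host genes in all and without regard to strand. The median difference was 1.14 for these 13 RNAs and 0.09 for the 14 hosts, and the median of WT replicate 4 over the other WT arrays was 1.09 for the RNAs and 0.11 for the hosts. Snora34 differed by 2.19 and its host Kansl2 by -0.01 (SE 0.11). Snora47 differed by 1.81 and Zbed3 by -0.00 (SE 0.12), and Snord17 by 1.76 and Snx5 by 0.09 (SE 0.10). In each of these pairs the host probe was well above background on all 6 arrays with overlapping groups. The snoRNA groups did not overlap, although those of Snora34 met at -0.21 (WT replicate 4 and Selenbp1-KO replicate 3). Every Selenbp1-KO array lay above every WT array at 9.22% of all probes. Snora73a, at 1.14, lies in Snhg3, which differed by 0.09 (SE 0.12).

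In some other pairs the snoRNA differed less, which by itself brings it closer to a host that differed little. Snord33 and its host Rpl13a, a ribosomal protein gene, differed by 0.54 and 0.30 (SE 0.11), and Snord7 and its host AA465934 differed by 0.54 and 0.54 (SE 0.11). Both host genes passed the unadjusted threshold but not adjustment (limma adjusted p = 0.279 for each). With slide side as a block the call of Rpl13a was lost (0.20) and that of AA465934 was not (0.49). Rps2 and Snhg9, which both span Snora78, differed by 0.18 and 0.12. Snhg4, the host of Snora74a, differed in the other direction by -1.36 at the limma threshold, but it was well above background on 1 WT array and on no Selenbp1-KO array, and with another background correction the difference was 0.03. Of the 14 hosts by position, 3 passed the unadjusted threshold. Of another list of 16 snoRNA host genes (Gas5 and genes named Snhg), Snhg4 was the only one past it, beside 7.99% of all genes. Rpl13a and AA465934 were not in that list. Gas5, Snhg1 and Snhg12, noncoding hosts of several snoRNAs each, differed by -0.11, -0.10 and -0.05.

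**Figure D3:**
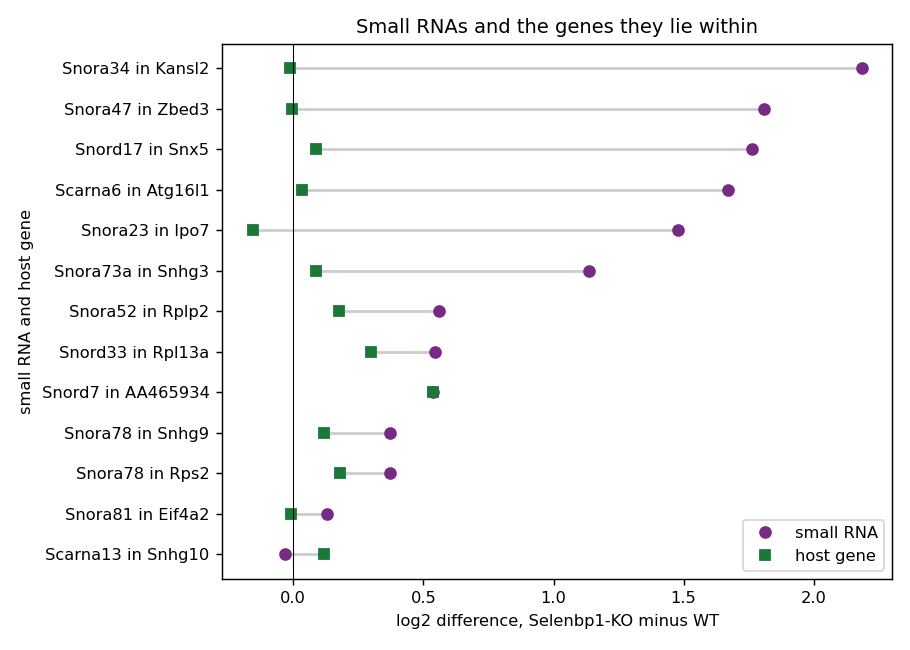
Log2 difference between Selenbp1-KO and WT kidneys (x axis) of small RNAs (circles) and of the genes they lie within (squares), 1 pair per row (y axis) and joined by a line. Snhg4 is left out because its signal stood well above background on a single WT array. The squares lie between -0.16 and 0.54, and the circles reach 2.19. The WT signals behind the circles of Snora23 and Scarna6 were not well above background.

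The small RNAs were chosen for their KO-WT difference, so their place among the largest such differences of all probes is a description. Of the 26819 probes well above background on all 6 arrays, 65 (0.242%) were higher by over 1 in Selenbp1-KO kidneys, and 15 of them were small structured RNAs. WT replicate 4 was over 1 above the other WT arrays at 159 probes (0.593%), of which 14 were small structured RNAs. At 18 probes both differences, which share the WT arrays, were over 1, and 14 of those 18 were small structured RNAs. The remaining 7 of the 21 measured RNAs were under 1 in at least one of the differences. The SD among the WT arrays had a median of 0.83 over these 21 RNAs against 0.12 over all such probes, while the SD among Selenbp1-KO arrays had a median of 0.19 against 0.11. Histone genes, whose main messages also lack a poly(A) tail, were a comparison by name. Their median difference over 68 probes was 0.20 between genotypes, 0.32 between WT replicate 4 and the other WT arrays, and 0.02 between Selenbp1-KO and WT replicate 4. For the 10 probes of genes named Mir, the corresponding medians were 0.12, 0.33 and 0.05.

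**Figure D4:**
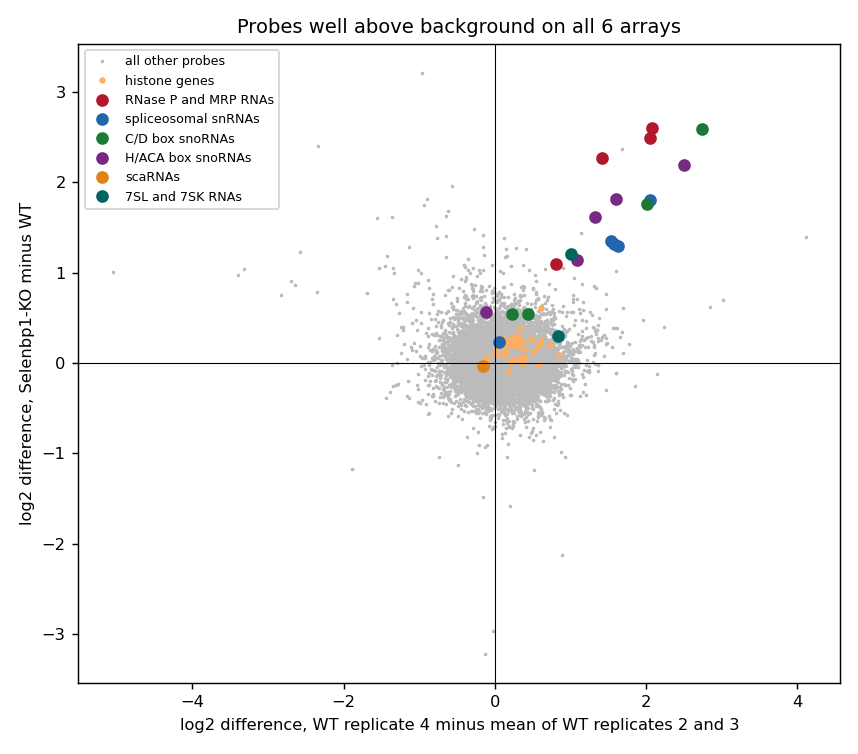
Log2 difference between Selenbp1-KO and WT kidneys (y axis) against the log2 difference between WT replicate 4 and the mean of WT replicates 2 and 3 (x axis), for the 26819 probes well above background on all 6 arrays, of which 21 are small structured RNAs (coloured by class). The WT arrays enter both axes, and the small RNAs were chosen for the difference on the y axis. Of the 18 probes over 1 on both axes, 14 are small structured RNAs.

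Among the features of the RNA and its probe that were compared, the GC content of the probe had the highest correlation with the KO-WT difference. RNA length ran from 82 to 397 nt, and its Spearman correlation with the KO-WT difference was 0.13 over the 28 RNAs. For the distance between the probe and the 3′ end of the RNA it was 0.03, and for the mean log2 signal it was 0.11. For the GC content of the probe, which ran from 35.0% to 66.7%, it was 0.41, and it was 0.40 with the difference from WT replicate 4. Over the 21 RNAs well above background on all 6 arrays these values were 0.46 and 0.50. The 28 points share the same 6 arrays and, for U1 and the Rprl genes, part of their sequence, so these values are descriptions. Probes that reach the last base of the RNA did not go together. Of the 5 such probes, those of Rnu3b1, Snord17 and Snora73a differed by 2.59, 1.76 and 1.14, whereas those of Rn7sk and Scarna13 differed by 0.30 and -0.03.

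Measures of the tissue and of the arrays were set beside these values. The summed kidney markers were between 9.01 and 9.12 on all 6 arrays. Markers of red blood cells (4 of 4), fibroblasts (3 of 3) and fat (3 of 3) had higher means in Selenbp1-KO kidneys, with medians of 0.71, 0.83 and 0.74. Their summed log2 levels ran from 8.01 to 8.43 in WT and from 8.50 to 9.07 in Selenbp1-KO for red blood cells, from 3.71 to 4.31 and from 4.69 to 5.08 for fibroblasts, and from 0.34 to 1.74 and from 0.48 to 3.51 for fat. Among the WT arrays, the sums for fibroblasts and fat were lowest in WT replicate 4. The red blood cell sum was at 8.31, 8.01 and 8.43 in WT replicates 2, 3 and 4 and above these on all 3 Selenbp1-KO arrays. It follows Hba-a1, the brightest of the 4 markers. WT replicate 4 differed from the other WT arrays by 0.27 for Hba-a1 and 0.15 for Hbb-b1, but by -0.26 for Alas2 and -0.18 for Slc4a1. Lymphocyte markers differed by a median of 0.03, and of 3 adrenal cortex markers 2 were well above background on no array. The 75th percentile of the signal was 711 and 751 on the side 1 arrays and from 477 to 584 on the side 2 arrays, and the share of probes well above background was from 51.8% to 55.5%. The part of these measures in the small RNA differences was not tested.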

How the data were processed

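Total RNA from 3 WT and 3 Selenbp1-KO left kidneys was labelled with Cy3 by a Low Input Quick Amp kit and hybridised to 6 one-colour Agilent arrays on 1 slide. The RNA kit differs between the labels and the study's methods. Feature Extraction output from the authors' scans (version 9.5.1.1 per the labels, 10.7.1.1 per the file headers) was deposited. It holds, for each spot, a linear processed intensity (background-subtracted and detrended, with a surrogate where low) and flags. The deposited files also hold the p-value of the test of each spot against background, computed by that software. A deposited table of linear intensity per probe ranks the probes as the scans do, with a median of 24.4 in every column. How it was normalized is not given in the sources used here. It served as an alternative.

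Flagged spots (44 to 73 per array) were dropped, spots of a probe averaged, and log2 of the intensity taken minus log2 of the 75th percentile of the array. Of 56605 probes, 56097 whose background p-value was under 0.05 on 1 array or more were tested with limma (version 3.58.1, R version 4.3.3, two-sided), at the methods' unadjusted p under 0.05 with Benjamini-Hochberg values beside it. For lists of genes, the brightest probe stood for a gene (36713 genes). Symbols, lengths and hosts came from RefSeq (GRCm38.p6), by accession. Scarna6, well above background on no WT array, is given as a fold over a floor. On each WT array the floor was the higher of the probe's own signal and the lowest signal well above background. That fold is no strict lower limit. Genes were named as 1 representative per class, the brightest members, the members with the largest differences, and fixed protein partners. Members and lists were chosen with earlier results of these data known. Scaling, background correction, filters, moderation, blocks and left-out arrays were tried as alternatives. With 6 arrays precision is limited, and the fit was tested on simulated data.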

Additional observations from a re-analysis of the deposited data

How the results depend on the processing

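Of the 28 RNAs, 25 had a positive difference under every alternative run (18, or 17 for Terc, Snora78, Vaultrc5 and Snora23, which the well-above-background filter left out), and Scarna13, Snora81 and Rn7sk did not. The number past the threshold was 7 with slide side as a block and 8 without the side 1 arrays (chosen after seeing the data), both with a median of 0.42, and leaving out each array in turn gave 11 to 21 with a median of 1.03 to 1.84. For the protein partners the count of 2 became 15 with quantile normalization (8.35% of all probes called) or the authors' normalized values (8.36%), 5 with probes well above background (9.96%), 8 with trend and robust moderation (13.4%), 0 with median scaling, side block or replicate block, 0 with spike-in scaling or without side 1 (both chosen after seeing the data), and 0 to 8 with each array left out. Their median was -0.0362 with spike-in scaling and -0.0125 to 0.0306 with each array left out, reversed at 0.0306 without Selenbp1-KO replicate 2. For the list of 16 host genes the count of 1 became 0 with normexp background correction, the well-above-background filter or the replicate block. It became 2 with the mean of all probes. Snhg4 reversed to 0.0286 with normexp. The cause was not tested. Of the other values for single genes, 73 moved, 21 were weaker, 2 were stronger and 726 were the same. Replicate numbers 2 and 3 occur in both genotypes but only number the samples (correlations 0.16 and 0.21 of their deviations); with the replicate block 22 small RNAs passed, with a median of 1.73, beside 32.9% of all probes. Low signal limits Terc, Vaultrc5, Scarna6, Snora23 and Snhg4, and also Rprl1 in WT kidneys. Side and genotype cannot be fully told apart with 1 WT array on side 2.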
